A study of Mus musculus with 18 samples.

Results

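The opioid peptide precursors and receptors are 7 genes, taken by symbol from the authors' deposited tables of 24015 rows each: the 3 precursor genes Penk, Pdyn and Pnoc and the 4 receptor genes Oprm1, Oprd1, Oprk1 and Oprl1. All 7 were listed and tested in all 3 tables. RNA was sequenced from the microdissected dentate gyrus of C57BL/6 mice aged 8 weeks, with 18 libraries in 6 groups of 3 and, per the labels, a library from each individual. The groups were cFos_OE and EYFP_OE, named for overexpression of c-Fos or of a yellow fluorescent protein. The other 4 were shRNA-cFos_E1, shRNA-cFos_E0, shRNA-Ctrl_E1 and shRNA-Ctrl_E0, with a short hairpin RNA named for c-Fos or a control hairpin. The study, by its design text, followed the dentate gyrus through activation of its neurons; E0 is called sham by the deposited tables. How the constructs were delivered, from which promoter and to which cells is not given in the sources used here. The deposited values are fold changes and means over a comparison, so no value per library can be shown.

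Opioid peptides are cut from larger precursor proteins in secretory vesicles and act on receptors that couple to inhibitory G proteins. Penk gives the enkephalins, which act mainly at the delta receptor (Oprd1) and the mu receptor (Oprm1). Pdyn gives the dynorphins, which prefer the kappa receptor (Oprk1), and Pnoc gives nociceptin, the ligand of Oprl1. The activated receptors open inwardly rectifying potassium channels, close presynaptic calcium channels and lower cyclic AMP. In the rodent dentate gyrus, dynorphin is stored in granule neurons and their mossy fibres, and mu receptors are found mostly on interneurons. c-Fos, the protein of Fos, is a subunit of the transcription factor AP-1. The Fos gene is transcribed within minutes of neuronal activity.

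Fos, the targeted gene, was read first as a check of the labels. In the authors' deposited tables its log2 fold change ± standard error was 3.34 ± 0.20 in cFos_OE over EYFP_OE. The authors' fit pulls fold changes toward 0. With that pull removed, the estimate for Fos from the authors' deposited table was 6.02, which is uncertain. At E1 over E0 the authors' deposited tables gave Fos 2.33 ± 0.15 with shRNA-cFos and 3.36 ± 0.14 with shRNA-Ctrl. Estimated levels of Fos, from the authors' deposited tables with the shRNA-cFos table scaled to the other one, were 1348 normalized counts in shRNA-cFos_E1 and 2126 in shRNA-Ctrl_E1. At E0 they were 229.9 in shRNA-cFos_E0 and 178.3 in shRNA-Ctrl_E0, so the scaled estimate was lower with shRNA-cFos at E1 and not at E0. Neither level has an error, and the arms were normalized separately. Without scaling the log2 ratio shRNA-cFos over shRNA-Ctrl was -1.09 at E1 and -0.06 at E0, estimated from the authors' deposited tables. The median standard error over all tested genes was 0.12 for overexpression, 0.12 for shRNA-cFos and 0.11 for shRNA-Ctrl in the authors' deposited tables. A gene is called changed below where the authors' adjusted p (DESeq2, Benjamini-Hochberg) was under 0.05.

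Penk rose in all 3 comparisons, and by far the most with c-Fos overexpression. The authors' deposited table gave Penk 3.44 ± 0.12 on the log2 scale in cFos_OE over EYFP_OE, or 10.9-fold (DESeq2 adjusted p = 5.72e-187). Its mean over the 6 libraries of that comparison was 1981 normalized counts in the authors' deposited table. Among 15827 tested genes Penk stood 2 in order of p-value and 4 in order of log2 fold change, from the authors' deposited table. The group levels behind this change, estimated from the mean and the fold change of the authors' deposited table, were 3693 normalized counts in cFos_OE and 269 in EYFP_OE. These levels take out the pull toward 0 of the authors' fit and carry no error; with that pull removed the fold was 13.7. The standard error of Penk was 1.48 times the median of the 3217 genes within 2-fold of its mean in the authors' deposited table; that of Pdyn was 1.45 times the median of its own.

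At E1 the change of Penk was smaller. With shRNA-cFos, the authors' deposited table gave Penk 0.46 ± 0.14 on the log2 scale (1.38-fold, DESeq2 adjusted p = 0.0053). With shRNA-Ctrl it was 0.62 ± 0.15 in the authors' deposited table (1.54-fold, DESeq2 adjusted p = 0.00021). Estimated levels from the authors' deposited tables were 424 normalized counts in shRNA-cFos_E1 and 299.8 in shRNA-cFos_E0, after scaling the shRNA-cFos table to the other one. They were 460.3 in shRNA-Ctrl_E1 and 290.3 in shRNA-Ctrl_E0. EYFP_OE and the E0 groups thus lay at 269 to 299.8 normalized counts of Penk, estimated from the authors' deposited tables, which were normalized separately.

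The E1 response of Penk was not shown to differ between the hairpins. The log2 difference, shRNA-cFos minus shRNA-Ctrl, was -0.16 ± 0.20, with a 95% interval of -0.55 to 0.24, computed from the authors' deposited tables (2-sided normal test, Benjamini-Hochberg adjusted p = 0.64). A response lower by up to 0.55 on the log2 scale with shRNA-cFos is therefore within the error. The overexpression change of Penk exceeded its E1 change by 2.98 ± 0.18 against shRNA-cFos and by 2.82 ± 0.19 against shRNA-Ctrl. Both log2 differences were computed from the authors' deposited tables with the same test (Benjamini-Hochberg adjusted p = 7.98e-58 and 4.23e-48). These 2 tests were added after the values of the 7 genes were seen. Of all genes tested, 26.3% differed between overexpression and the shRNA-cFos response (11.3% higher and 15.0% lower with overexpression), and 20.3% between overexpression and the shRNA-Ctrl response (10.0% and 10.3%).

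**Figure D1:**
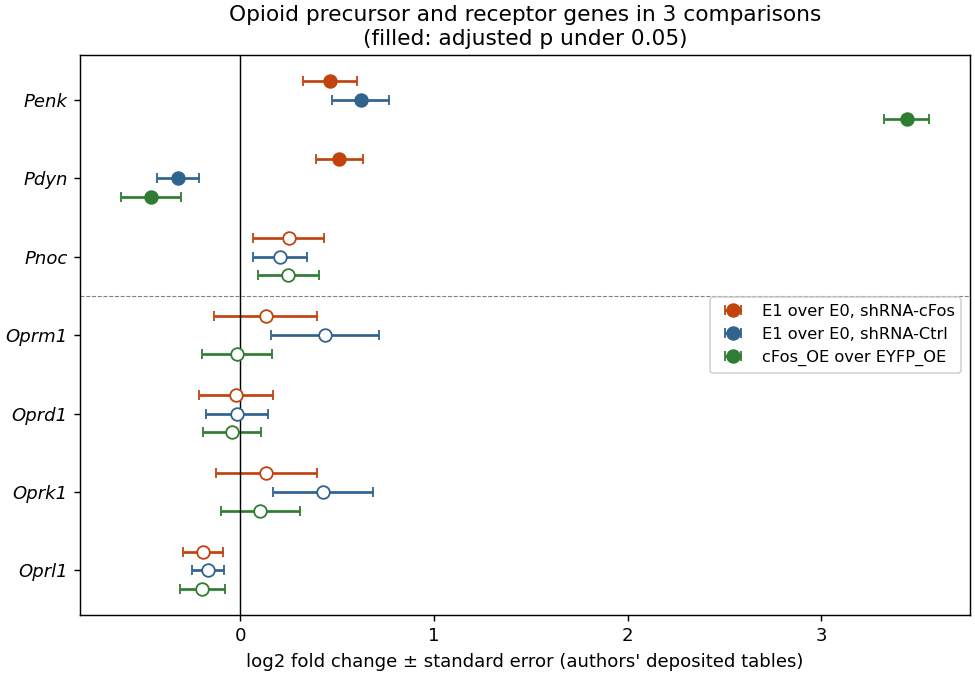
Log2 fold change of each opioid gene (x axis) with its standard error, from the authors' deposited tables, for E1 over E0 with shRNA-cFos, E1 over E0 with shRNA-Ctrl and cFos_OE over EYFP_OE. Filled points are adjusted p under 0.05. Penk at 3.44 with overexpression stands alone on the right, Pdyn takes both signs, and the receptor genes are all open points.

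**Figure D2:**
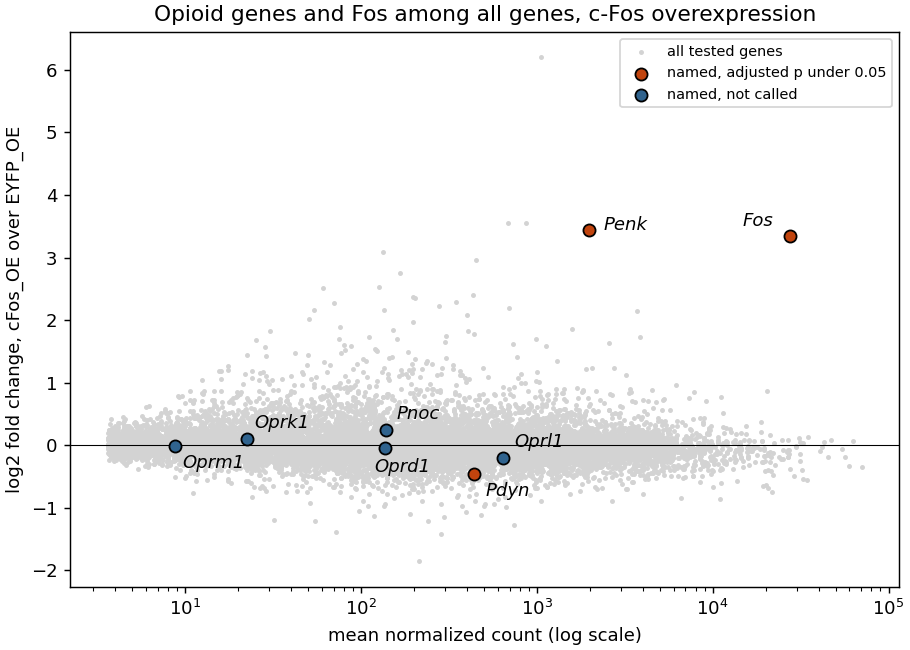
Log2 fold change in cFos_OE over EYFP_OE (y axis) against the mean normalized count on a log axis, for every gene tested in the authors' deposited table (grey), with the opioid genes and Fos marked. Penk at 3.44 lies near Fos at 3.34 and far above the other opioid genes, which lie between -0.46 and 0.25. These values carry the pull of the fit toward 0. With it removed, Penk was estimated at 3.78 and Fos at 6.02, the latter uncertain.

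Pdyn, the dynorphin precursor gene, changed in all 3 comparisons but not in the same direction. It rose at E1 with shRNA-cFos, by 0.51 ± 0.12 on the log2 scale in the authors' deposited table (1.42-fold, DESeq2 adjusted p = 0.00032). It fell at E1 with shRNA-Ctrl, where the authors' deposited table gave -0.32 ± 0.11 (DESeq2 adjusted p = 0.010). It also fell with c-Fos overexpression, at -0.46 ± 0.16 in the authors' deposited table (DESeq2 adjusted p = 0.029). Both falls were under 1.5-fold, and neither passed an adjusted p of 0.01.

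The difference of the E1 responses of Pdyn was itself larger than the error. It was 0.83 ± 0.16 on the log2 scale, shRNA-cFos minus shRNA-Ctrl, with a 95% interval of 0.52 to 1.15, computed from the authors' deposited tables (2-sided normal test, Benjamini-Hochberg adjusted p = 8.67e-06). Pdyn was the 1 of the 7 opioid genes that passed this test, against 23.8% of all 14386 genes tested, of which 12.9% were higher and 11.0% lower with shRNA-cFos. The overexpression change of Pdyn lay below its shRNA-cFos E1 response, by -0.97 ± 0.20 on the log2 scale, computed from the authors' deposited tables (adjusted p = 1.58e-05). Against the shRNA-Ctrl E1 response the difference was -0.14 ± 0.19, with a 95% interval of -0.51 to 0.23, computed from the authors' deposited tables (adjusted p = 0.69).

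Estimated levels of Pdyn from the authors' deposited tables were 565 normalized counts in shRNA-cFos_E1 and 389 in shRNA-cFos_E0 after scaling. They were 581 in shRNA-Ctrl_E1 and 732 in shRNA-Ctrl_E0. The arms therefore lay close at E1 and apart at E0. The log2 ratio shRNA-cFos over shRNA-Ctrl, estimated from the authors' deposited tables, was -0.04 at E1 and -0.91 at E0 with the tables scaled to each other, and -0.47 and -1.35 without scaling. No test of these ratios was possible, since the arms were normalized separately. In the overexpression comparison the estimate from the authors' deposited table was 356 in cFos_OE and 526 in EYFP_OE.

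Granule neurons store dynorphin, and their markers are set beside Pdyn. Of the 10 granule neuron markers, 7 rose and 0 fell at E1 with shRNA-cFos, with a median of 0.26 on the log2 scale in the authors' deposited table, against 16.3% and 11.7% of all genes. With shRNA-Ctrl, 1 rose and 7 fell, with a median of -0.55 in the authors' deposited table, against 16.8% and 16.2% of all genes. The marker that rose was C1ql3 (0.20 ± 0.07 in the authors' deposited table). With overexpression, 0 rose and 5 fell, with a median of -0.35 in the authors' deposited table, against 7.10% and 5.86% of all genes. C1ql2 (0.16 ± 0.20), Prox1 (0.12 ± 0.10) and Npnt (0.04 ± 0.12) had positive values there in the authors' deposited table and were not called. The summed level of the 10 markers, estimated within each of the authors' deposited tables, was 17415 normalized counts in shRNA-cFos_E1 and 12915 in shRNA-cFos_E0, unscaled. It was 22277 in shRNA-Ctrl_E1 and 29264 in shRNA-Ctrl_E0, and 20329 in cFos_OE and 23849 in EYFP_OE. The shRNA-cFos sums thus carry the log2 offset of -0.43 between the shRNA tables, which the scaled Pdyn levels above do not. Unscaled, Pdyn was estimated at 419 in shRNA-cFos_E1 and 288 in shRNA-cFos_E0, from the authors' deposited table. None of these markers had a mean of 0. In such bulk libraries fewer cells of a type and less RNA per cell cannot be told apart, and the part of either in the values of Pdyn was not tested.

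**Figure D3:**
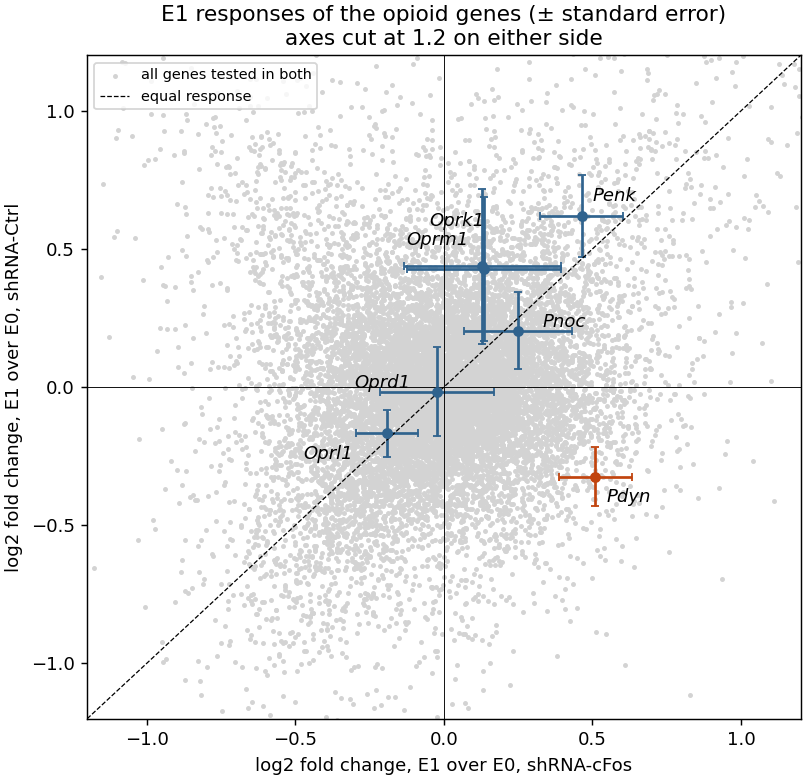
Log2 fold change at E1 over E0 with shRNA-cFos (x axis) and with shRNA-Ctrl (y axis), from the authors' deposited tables, for all genes tested in both (grey) and the opioid genes with their standard errors. The axes end at 1.2, so genes beyond are not drawn. Pdyn lies off the line of equal response, at 0.51 and -0.32, and the other opioid genes lie nearer to it.

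Promoter windows from RefSeq (build GRCm38.p6) were found for 4 of the 7 genes, Pdyn, Oprm1, Oprd1 and Oprl1. Each window runs from 250 bases before to 50 bases after an annotated start. They were searched on both strands for TGANTCA, the AP-1 site that Fos and Jun proteins bind, for TGACGTCA, the cAMP response element, and for its core TGACG, which the whole element contains on either strand. None of these letters occurred in any window of the 4 genes, which says only that they are not in these windows. Of all 32851 windows, 7.81% held TGANTCA, 1.79% held TGACGTCA and 20.8% held TGACG. Of the 2 windows of Pdyn 1 is shown, because the gene was called in every comparison. Beside it stand 2 genes of the same pathway. Pcsk1 encodes a convertase that cuts neuropeptide precursors and rose at E1. Mme encodes neprilysin, which degrades enkephalins. Mme had nearly the same 3 fold changes as Pdyn, but was called only at E1 with shRNA-cFos. Capitals mark the motifs.
Pdyn, chr2:129699889-129700188, minus strand: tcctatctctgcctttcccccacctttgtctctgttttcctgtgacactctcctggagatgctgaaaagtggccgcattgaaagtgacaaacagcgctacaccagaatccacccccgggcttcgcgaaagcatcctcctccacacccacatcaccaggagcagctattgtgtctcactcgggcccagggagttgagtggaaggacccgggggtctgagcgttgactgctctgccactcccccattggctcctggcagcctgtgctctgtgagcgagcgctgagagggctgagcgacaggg
Pcsk1, chr13:75089607-75089906, plus strand: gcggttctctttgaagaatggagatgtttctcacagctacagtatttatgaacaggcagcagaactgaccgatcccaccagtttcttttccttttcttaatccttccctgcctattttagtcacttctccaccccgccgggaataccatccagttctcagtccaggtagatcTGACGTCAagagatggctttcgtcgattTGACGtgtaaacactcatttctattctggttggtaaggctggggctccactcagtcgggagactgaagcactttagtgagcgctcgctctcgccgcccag
Mme, chr3:63295845-63296144, plus strand: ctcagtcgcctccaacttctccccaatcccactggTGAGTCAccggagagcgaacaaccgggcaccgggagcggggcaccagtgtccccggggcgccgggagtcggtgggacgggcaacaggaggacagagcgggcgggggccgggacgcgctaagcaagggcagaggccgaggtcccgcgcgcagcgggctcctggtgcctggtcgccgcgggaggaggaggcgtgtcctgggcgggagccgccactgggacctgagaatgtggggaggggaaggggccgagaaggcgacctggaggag
The Pcsk1 window held TGACGTCA from position -78 and a further TGACG from position -50, counted from the start site. This Mme window, 1 of 3 for the gene, held TGAGTCA from position -215. An overlapping window with another annotated start held the same letters from position 9, and the remaining window held none of the motifs. A match is a description of letters, not of binding.

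Pnoc, the nociceptin precursor gene, had positive fold changes in all 3 comparisons and passed in none. The authors' deposited tables gave 0.25 ± 0.18 at E1 with shRNA-cFos (DESeq2 adjusted p = 0.32), 0.20 ± 0.14 at E1 with shRNA-Ctrl (0.27) and 0.25 ± 0.16 with overexpression (0.39). The upper bounds of the 95% intervals were 0.60, 0.48 and 0.55 in the same order, computed from the authors' deposited tables. Estimated levels ran from 110 normalized counts in shRNA-cFos_E0, scaled, to 153 in cFos_OE, from the authors' deposited tables. The difference of its E1 responses, shRNA-cFos minus shRNA-Ctrl, was 0.04 ± 0.23, computed from the authors' deposited tables (adjusted p = 0.92).

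None of the 4 receptor genes was called in any comparison. Oprl1, the nociceptin receptor gene, was the most abundant of them and the most precisely measured. Its log2 fold change was -0.19 ± 0.10 at E1 with shRNA-cFos (DESeq2 adjusted p = 0.16) and -0.17 ± 0.08 at E1 with shRNA-Ctrl (0.11) in the authors' deposited tables. With overexpression the authors' deposited table gave Oprl1 -0.20 ± 0.12 (DESeq2 adjusted p = 0.34). The 3 values thus had the same sign and size, each within 2 standard errors of 0. Falls of up to 0.40, 0.33 and 0.43 on the log2 scale lie within the 95% intervals, computed from the authors' deposited tables. With shRNA-Ctrl the interval, which is not adjusted over genes, ended at -0.002 and so just left out 0. Estimated levels of Oprl1 were 597 normalized counts in cFos_OE and 694 in EYFP_OE, from the authors' deposited table.

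Oprd1, the delta receptor gene, had fold changes close to 0. The authors' deposited tables gave -0.02 ± 0.19 with shRNA-cFos, -0.02 ± 0.16 with shRNA-Ctrl and -0.04 ± 0.15 with overexpression, with DESeq2 adjusted p of 0.95, 0.95 and 0.93. The 95% intervals, computed from the authors' deposited tables, reached from -0.40 to 0.35, from -0.33 to 0.30 and from -0.34 to 0.25. Its estimated levels lay between 128 and 139 normalized counts in the 6 groups, with the shRNA-cFos table scaled, from the authors' deposited tables.

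Oprm1 and Oprk1, the mu and kappa receptor genes, were near the lower limit of what was measured. Mean normalized counts of Oprm1 in the authors' deposited tables were 13.3 for shRNA-cFos, 14.4 for shRNA-Ctrl and 8.81 for overexpression. Those of Oprk1 were 23.1, 25.4 and 22.6 in the same order in the authors' deposited tables. Oprm1 had log2 fold changes of 0.13 ± 0.26 at E1 with shRNA-cFos, 0.44 ± 0.28 at E1 with shRNA-Ctrl and -0.02 ± 0.18 with overexpression in the authors' deposited tables. Its smaller standard error with overexpression, at the lowest mean count, may reflect the pull of the fit and is no sign of higher precision. For Oprk1 the authors' deposited tables gave 0.13 ± 0.26, 0.43 ± 0.26 and 0.10 ± 0.20. The largest of these changes reached a DESeq2 adjusted p of 0.23 for Oprm1 and 0.21 for Oprk1 in the authors' deposited tables. The 95% intervals with shRNA-Ctrl ran from -0.11 to 0.99 for Oprm1 and from -0.08 to 0.94 for Oprk1, computed from the authors' deposited tables. For the receptor genes, E1 responses were not shown to differ between the hairpins. The log2 differences, shRNA-cFos minus shRNA-Ctrl, were -0.31 ± 0.38 for Oprm1, -0.29 ± 0.37 for Oprk1, -0.01 ± 0.25 for Oprd1 and -0.02 ± 0.13 for Oprl1, computed from the authors' deposited tables. Their 95% intervals, computed from the authors' deposited tables, ran from -1.06 to 0.45 for Oprm1, -1.01 to 0.43 for Oprk1, -0.50 to 0.48 for Oprd1 and -0.29 to 0.24 for Oprl1. All these intervals rest on values pulled toward 0 and are too narrow for Oprm1 and Oprk1. With the pull removed the differences were -0.42 ± 0.68 for Oprm1 and -0.36 ± 0.56 for Oprk1, both uncertain. In a later mouse annotation, GENCODE M21, Oprm1 overlaps Ipcef1 and Penk overlaps A830012C17Rik, both on the opposite strand. Values of Penk and Oprm1 could then hold reads of those genes, since whether the authors counted by strand is not given in the sources used here.

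Over the whole family, 2 of 7 genes were called in each comparison. At E1 with shRNA-cFos 2 rose and 0 fell, against 28.1% of all genes called in the authors' deposited table. At E1 with shRNA-Ctrl 1 rose and 1 fell, against 33.0% called, and with overexpression 1 rose and 1 fell, against 13.0% called in the authors' deposited tables. By direction, 16.3% of all genes rose and 11.7% fell with shRNA-cFos, 16.8% rose and 16.2% fell with shRNA-Ctrl, and 7.10% rose and 5.86% fell with overexpression. At E1 the counts are near the share over all genes. The median log2 fold change of the 7 was 0.13 with shRNA-cFos, 0.20 with shRNA-Ctrl and -0.02 with overexpression, beside -0.00, 0.01 and -0.01 over all tested genes in the authors' deposited tables.

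Levels were compared between genes per kilobase of annotated exon (GENCODE M21), since longer transcripts give more reads. In EYFP_OE the order of estimated levels was Oprl1 at 185 normalized counts per kilobase, Pdyn at 182, Penk at 165, Pnoc at 57.4, Oprd1 at 34.7, Oprk1 at 2.31 and Oprm1 at 1.10, from the authors' deposited table. In cFos_OE the same estimate placed Penk first, at 2260 per kilobase, above Oprl1 at 159 and Pdyn at 123. In shRNA-Ctrl_E1, Penk at 282 stood above Pdyn at 201, whereas in shRNA-Ctrl_E0 Penk at 178 stood below Pdyn at 254, per kilobase and estimated from the authors' deposited table. In shRNA-cFos_E1 and shRNA-cFos_E0, Penk at 260 and 184 stood above Pdyn at 196 and 135, per kilobase and scaled. These levels have no error, so neighbours in the order could not be told apart by a spread.

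**Figure D4:**
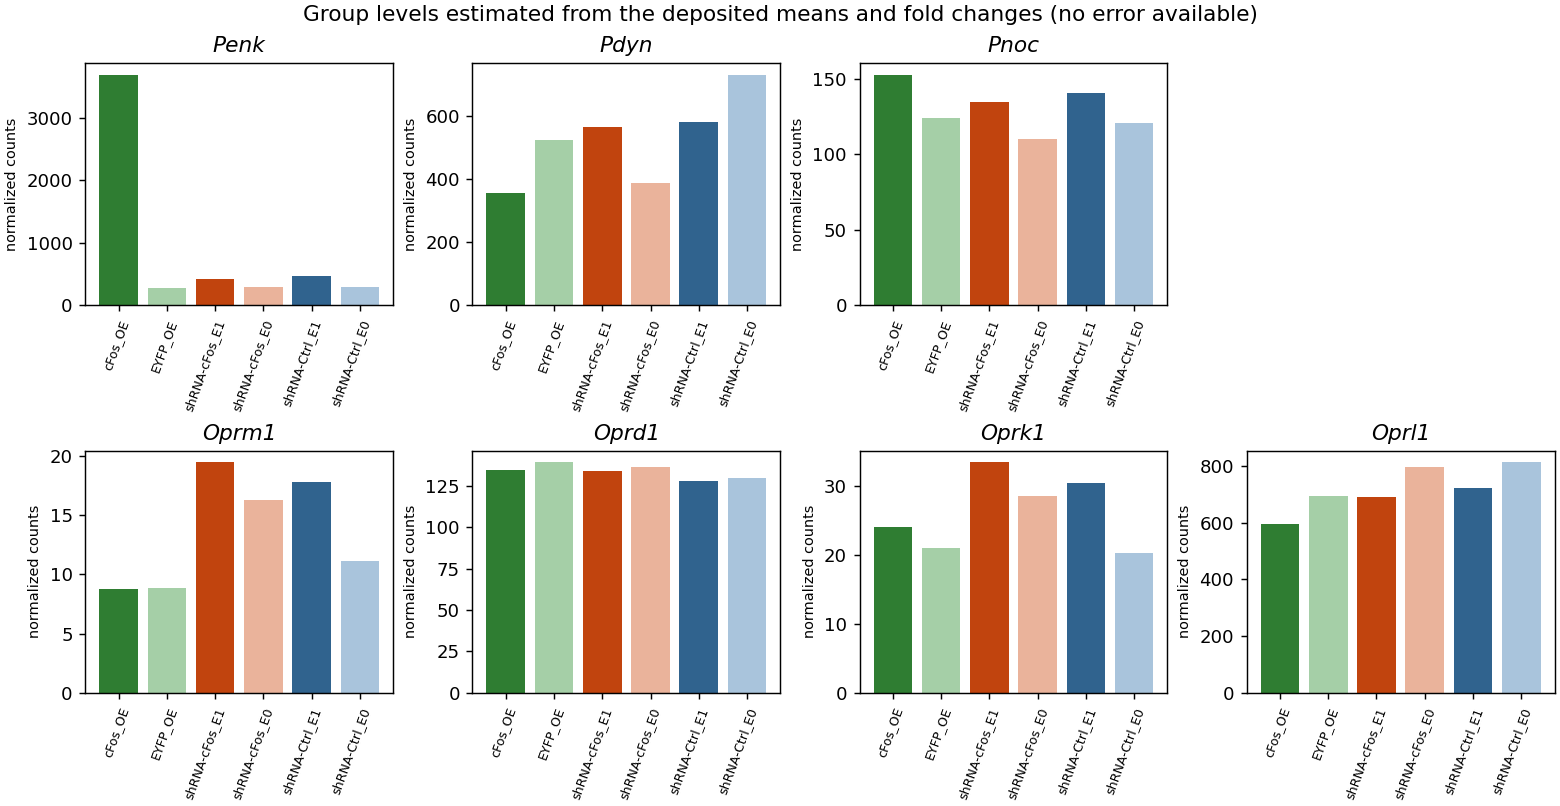
Estimated normalized counts (y axes, each from 0) of the opioid genes in the 6 groups, from the means and fold changes of the authors' deposited tables with the pull of the fit removed and the shRNA-cFos groups scaled to the shRNA-Ctrl table. Bars carry no error. Penk in cFos_OE stands at 3693 and at most 460.3 in the other groups, and Pdyn is highest in shRNA-Ctrl_E0 at 732.

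The genes most like each opioid gene were sought by Euclidean distance over the 3 log2 fold changes, among 12208 genes with a mean of at least 50 normalized counts in each table. The distance rests on 3 comparisons, not on samples. Nearest to Penk were Ret, a receptor tyrosine kinase gene (distance 0.44), Sorcs1 (0.76) and Acan, which encodes the matrix proteoglycan aggrecan (1.09), from the authors' deposited tables. Ret had 3.56 with overexpression, 0.03 at E1 with shRNA-cFos and 0.63 at E1 with shRNA-Ctrl in the authors' deposited tables. Sorcs1 had 3.56, -0.27 and 0.45 in the same order in the authors' deposited tables. Beside them Penk had 3.44, 0.46 and 0.62, the highest of the 3 with shRNA-cFos.

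Nearest to Pdyn were Ogfrl1 (distance 0.06), Mme (0.06) and Camk1d (0.08), from the authors' deposited tables. Ogfrl1 had 0.57 at E1 with shRNA-cFos, -0.31 at E1 with shRNA-Ctrl and -0.46 with overexpression in the authors' deposited tables. Mme had 0.50, -0.28 and -0.42 in the same order in the authors' deposited tables. Unlike Pdyn, Mme was not called with shRNA-Ctrl (DESeq2 adjusted p = 0.094) or with overexpression (0.062). Ogfrl1 was not called with shRNA-Ctrl (DESeq2 adjusted p = 0.19). For Pnoc and the receptor genes, whose changes are small, the nearest genes lay within 0.05, among them Nxf1 for Pnoc and Stoml1 for Oprl1, computed from the authors' deposited tables.

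The genes listed with the opioid family are described by their counts beside the shares of all genes, with no test of a list. Of 15 peptide processing genes, which encode enzymes and cargo of secretory vesicles, 8 rose and 0 fell with shRNA-cFos (median 0.19) and 5 rose and 2 fell with shRNA-Ctrl (median 0.14) in the authors' deposited tables. With overexpression 2 rose and 2 fell (median -0.03) in the authors' deposited table. Of all genes, 16.3% rose and 11.7% fell with shRNA-cFos, 16.8% and 16.2% with shRNA-Ctrl, and 7.10% and 5.86% with overexpression. Scg2, the secretogranin II gene, had log2 values of 1.18 ± 0.09 with shRNA-cFos, 1.31 ± 0.08 with shRNA-Ctrl and 0.74 ± 0.08 with overexpression in the authors' deposited tables, a rise in all 3. Pcsk1 rose by 1.07 ± 0.12 with shRNA-cFos and by 1.64 ± 0.15 with shRNA-Ctrl in the authors' deposited tables. Pcsk2, the convertase that completes dynorphin and enkephalin processing, rose at E1 with shRNA-cFos (0.66 ± 0.10), fell at E1 with shRNA-Ctrl (-0.42 ± 0.12) and fell with overexpression (-0.71 ± 0.09) in the authors' deposited tables. Its E1 responses differed by 1.08 ± 0.16 (shRNA-cFos minus shRNA-Ctrl, adjusted p = 1.04e-09), and those of Chga, the chromogranin A gene, by -0.37 ± 0.11 (adjusted p = 0.0047), computed from the authors' deposited tables.

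Of 10 genes for peptidases that degrade enkephalins and related peptides, 2 rose and 1 fell with shRNA-cFos (median 0.13), 2 rose and 1 fell with shRNA-Ctrl (median 0.01) and 1 rose and 0 fell with overexpression (median 0.07) in the authors' deposited tables. These counts are near the shares over all genes, which were 28.1%, 33.0% and 13.0% called in the same order. Npepps, a puromycin-sensitive aminopeptidase gene, rose by 0.48 ± 0.11 with shRNA-cFos and Ece1, an endothelin-converting enzyme gene, by 0.40 ± 0.08 with shRNA-Ctrl in the authors' deposited tables. A difference of the E1 responses was found for Mme (0.78 ± 0.23, adjusted p = 0.0043) and Ece2 (0.45 ± 0.14, adjusted p = 0.0089), both shRNA-cFos minus shRNA-Ctrl and computed from the authors' deposited tables. Of the 5 other opioid-type genes 4 were tested, and Mrgprx1 was listed at 0. Of these, 2 rose with shRNA-cFos (median 0.14), 1 rose with shRNA-Ctrl (median 0.00) and 1 fell with overexpression (median -0.00) in the authors' deposited tables. Ogfr, the receptor gene of the opioid growth factor, rose by 0.35 ± 0.09 with shRNA-cFos and by 0.61 ± 0.08 with shRNA-Ctrl in the authors' deposited tables. Ogfrl1, a gene related to Ogfr in sequence, fell with overexpression, at -0.46 ± 0.07 in the authors' deposited table, and its E1 responses differed by 0.88 ± 0.28 (adjusted p = 0.0096), computed from the authors' deposited tables.

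G proteins and effectors carry the signal of the receptors. Of 8 G protein genes, 3 rose and 1 fell with shRNA-cFos (median 0.07), 1 rose and 3 fell with shRNA-Ctrl (median -0.09) and 0 rose and 2 fell with overexpression (median -0.13) in the authors' deposited tables. Gnao1, the alpha subunit gene of the G protein Go, rose with shRNA-cFos (0.46 ± 0.09) and fell with overexpression (-0.23 ± 0.07) in the authors' deposited tables. For Gnb1 and Gnao1 the E1 responses differed by 0.60 ± 0.11 (adjusted p = 2.69e-06) and 0.56 ± 0.12 (adjusted p = 0.00011), computed from the authors' deposited tables. Of 11 effector genes, 6 rose and 0 fell with shRNA-cFos (median 0.26), 0 rose and 2 fell with shRNA-Ctrl (median -0.05) and 0 rose and 4 fell with overexpression (median -0.14) in the authors' deposited tables. Beside both lists, the shares of all genes that rose and fell were 16.3% and 11.7% with shRNA-cFos, 16.8% and 16.2% with shRNA-Ctrl, and 7.10% and 5.86% with overexpression. Adcy1, an adenylyl cyclase gene, had 0.43 ± 0.07 with shRNA-cFos, -0.37 ± 0.08 with shRNA-Ctrl and -0.74 ± 0.11 with overexpression in the authors' deposited tables, the same 3 directions as Pdyn. Its E1 responses differed by 0.80 ± 0.11 (adjusted p = 1.42e-10) and those of Cacna1a, a presynaptic calcium channel gene, by 0.49 ± 0.10 (adjusted p = 6.05e-05), computed from the authors' deposited tables. Of the 11 effector genes, 6 had a higher response with shRNA-cFos and 0 a lower one, against 12.9% and 11.0% of all genes, computed from the authors' deposited tables.

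Among 19 genes of receptor desensitisation and RGS proteins, which speed the shutdown of G proteins, 10 rose and 0 fell with shRNA-cFos (median 0.26) in the authors' deposited table. With shRNA-Ctrl 4 rose and 4 fell (median -0.04), and with overexpression 4 rose and 1 fell (median -0.02) in the authors' deposited tables. Of all genes, 28.1% were called with shRNA-cFos, 33.0% with shRNA-Ctrl and 13.0% with overexpression. Rgs4 rose in all 3 comparisons like Penk, with 1.73 ± 0.09 with overexpression, 1.54 ± 0.08 at E1 with shRNA-cFos and 2.15 ± 0.07 at E1 with shRNA-Ctrl in the authors' deposited tables. Its E1 responses differed by -0.61 ± 0.11 (adjusted p = 1.02e-06), and those of Rgs8 by 0.95 ± 0.17 (adjusted p = 5.61e-07), computed from the authors' deposited tables. Rgs2 rose at E1, by 2.23 ± 0.10 with shRNA-cFos and by 2.65 ± 0.09 with shRNA-Ctrl in the authors' deposited tables. Arrb1, a beta-arrestin gene, rose with shRNA-cFos (0.57 ± 0.08) and with overexpression (0.57 ± 0.08) in the authors' deposited tables.

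Of 14 genes for known regulators of precursor gene transcription, 9 rose and 1 fell with shRNA-cFos (median 0.78) and 8 rose and 2 fell with shRNA-Ctrl (median 1.04) in the authors' deposited tables. Fosb had 5.09 ± 0.11 with shRNA-cFos and 5.83 ± 0.12 with shRNA-Ctrl, and Fosl2 2.81 ± 0.07 and 3.60 ± 0.09, in the authors' deposited tables. With overexpression 3 rose and 3 fell (median -0.07) in the authors' deposited table, against 28.1%, 33.0% and 13.0% of all genes called with shRNA-cFos, with shRNA-Ctrl and with overexpression. Kcnip3, which encodes DREAM, a calcium-binding repressor known to bind the Pdyn gene, rose with overexpression, by 0.87 ± 0.08 in the authors' deposited table. Junb, an AP-1 partner gene, fell there (-0.82 ± 0.12), as did Nr3c1, the glucocorticoid receptor gene (-0.53 ± 0.08), in the authors' deposited table. Fosb also fell with overexpression (-0.79 ± 0.15), whereas Fosl2 rose (0.35 ± 0.11), in the authors' deposited table. At E1 Junb rose, by 2.37 ± 0.12 with shRNA-cFos and 2.48 ± 0.12 with shRNA-Ctrl, in the authors' deposited tables. Nr3c1 fell at E1 as well, at -0.64 ± 0.11 with shRNA-cFos and -0.54 ± 0.10 with shRNA-Ctrl, in the authors' deposited tables. The E1 responses of Fosl2 differed by -0.79 ± 0.12 (adjusted p = 1.28e-09), those of Fos by -1.03 ± 0.20 (adjusted p = 1.11e-05) and those of Crtc1, a CREB coactivator gene, by 0.65 ± 0.10 (adjusted p = 1.14e-08), computed from the authors' deposited tables.

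**Figure D5:**
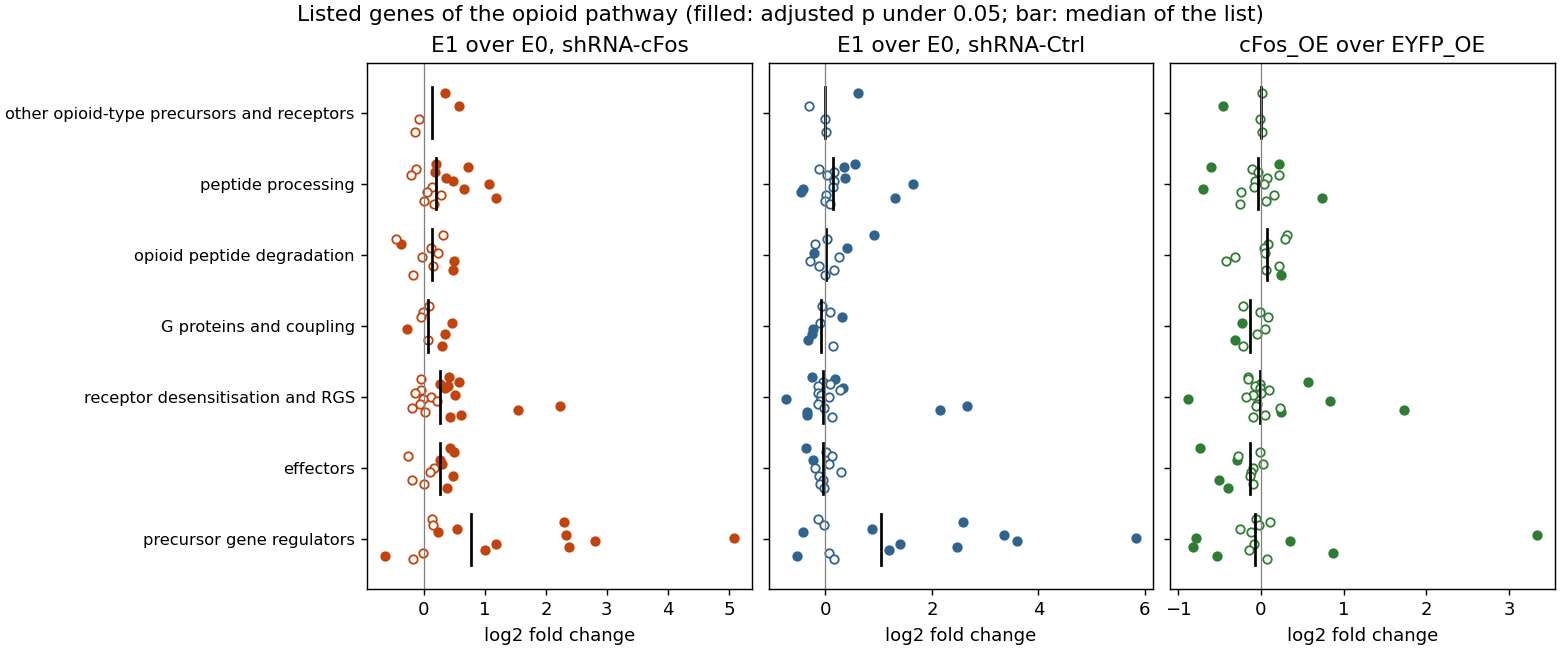
Log2 fold changes (x axes) of the tested genes of 7 opioid pathway lists in the 3 comparisons, from the authors' deposited tables. Each point is a gene, filled where the adjusted p was under 0.05, and each vertical bar is the median of its list. With shRNA-cFos 6 effector genes lie to the right of 0 as filled points, and with overexpression 4 lie to the left.

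Markers of the cells other than granule neurons were read beside Penk, Pnoc and the receptor genes. For all genes, the shares that rose and fell were 16.3% and 11.7% with shRNA-cFos, 16.8% and 16.2% with shRNA-Ctrl, and 7.10% and 5.86% with overexpression. Interneuron markers, of which 12 were listed, rose for 8 and fell for 0 at E1 in both arms, with medians of 0.44 with shRNA-cFos and 0.29 with shRNA-Ctrl in the authors' deposited tables. With overexpression 1 rose and 3 fell (median -0.24) in the authors' deposited table. Their summed estimated level was 22053 normalized counts in shRNA-cFos_E1 and 15454 in shRNA-cFos_E0, unscaled, 28034 in shRNA-Ctrl_E1 and 24169 in shRNA-Ctrl_E0, and 21401 in cFos_OE and 23875 in EYFP_OE, from the authors' deposited tables. The shRNA-cFos sums carry the log2 offset of -0.43 between the shRNA tables. Of 6 astrocyte markers 3 rose and 1 fell with overexpression, with a summed estimated level of 46881 normalized counts in cFos_OE and 27456 in EYFP_OE, from the authors' deposited table. The median of these markers was 0.33. Gfap, at 0.86 ± 0.20 in the authors' deposited table, had a standard error near the highest there, so its part of the sum is uncertain. Of 6 microglial markers 2 rose with overexpression and none fell, with sums of 6575 in cFos_OE and 5159 in EYFP_OE, from the authors' deposited table. Of 6 endothelial markers 4 fell there, of 6 mossy cell markers 1 and of 10 pyramidal neuron markers 1, and of 6 oligodendrocyte markers 0 were called, in the authors' deposited table. The oligodendrocyte markers had a median of -0.31 and standard errors near the highest there, so 0 calls do not show that they were unchanged. At E1, pyramidal markers rose for 3 and fell for 1 with shRNA-cFos and fell for 2 with shRNA-Ctrl, and mossy cell markers rose for 2 and 1, in the authors' deposited tables. Microglial markers rose for 1 and fell for 2 with shRNA-cFos and rose for 5 with shRNA-Ctrl, in the authors' deposited tables. Astrocyte markers rose for 2 and fell for 2 with shRNA-cFos and rose for 1 with shRNA-Ctrl, endothelial markers rose for 1 and fell for 1 and rose for 2, and oligodendrocyte markers gave 0 calls, in the authors' deposited tables. No marker of these lists had a mean of 0. The part of other cells in the opioid gene values was not tested.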

How the data were processed

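RNA-seq of dentate gyrus was aligned with TopHat2 to mm9 and compared with DESeq2, per the submitters' processing notes, which give no versions; which counting tool and annotation were used is not given in the sources used here. Per the file headers, each deposited row holds the mean normalized count (a signal scaled by size factors), the fold change and its standard error (both log2), a Wald score, a p-value and an adjusted p-value. The tables hold 0 columns per library, so library depth is unknown and precision is that of the authors' standard errors. Rows of 27 gene names turned into dates were dropped.

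The deposited log2 fold changes show a pull toward 0, since standard errors reach at most 0.26 (shRNA-cFos), 0.29 (shRNA-Ctrl) and 0.20 (overexpression). A normal prior of standard deviation 0.53, 0.59 and 0.41 was removed algebraically to estimate group levels. This step has 2 solutions, and the one with the smaller standard error was taken. For Oprm1 in every comparison and Oprk1 with shRNA-cFos and overexpression it is uncertain. With overexpression the standard error was 0.18 for Oprm1, at a mean of 8.81, and 0.20 for Oprk1, at 22.6. The other solution may therefore apply to Oprm1 there. The same holds with overexpression for Fos and, among markers in the summed levels, for Gfap and C1ql2. Levels of the shRNA-cFos table were multiplied by 1.35, from the median E0 log2 ratio of -0.43 over 12406 genes. Differences of fold changes were divided by their joint standard error (squares added) and tested against a normal distribution on both sides. The p-values were adjusted by Benjamini-Hochberg over all genes (Python 3.11.15, scipy 1.17.1). The step was run on simulated data with known standard errors and no pull toward 0. That run does not show how the test behaves on the deposited, pulled values. Genes were named as the 7 members, Fos and, per list and comparison, up to 4 of smallest adjusted p. The members and lists were chosen with earlier results of these data known.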

Additional observations from a re-analysis of the deposited data

Results flagged for a closer look

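These genes were picked out because their E1 response differed between the hairpins by the test of the difference itself (shRNA-cFos minus shRNA-Ctrl, log2 scale, computed from the authors' deposited tables). Pdyn, at 0.83, was the 1 opioid gene among them and had opposite signs in the 2 arms. Of the pathway genes with the smallest adjusted p in each list, a higher response with shRNA-cFos was found for Pcsk2 (1.08), Rgs8 (0.95), Ogfrl1 (0.88), Adcy1 (0.80), Mme (0.78), Crtc1 (0.65), Gnb1 (0.60), Gnao1 (0.56), Cacna1a (0.49) and Ece2 (0.45), computed from the authors' deposited tables. A lower response was found for Fos (-1.03), Fosl2 (-0.79), Rgs4 (-0.61) and Chga (-0.37), computed from the authors' deposited tables. Among the 10 granule neuron markers, 9 were higher and 0 lower by this test (median 0.82 on the log2 scale), against 12.9% and 11.0% of all genes, computed from the authors' deposited tables.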

How the results depend on the processing

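Of 246 values of single opioid genes under other settings, 240 kept their side of the threshold, and 0 changed sign among called genes. In the deposited comparisons, removing the pull of the fit leaves every p-value unchanged by construction, so those values are no test of the calls. A looser adjusted p of 0.1 could add a call but not drop one. Pnoc, which was not called, changed sign in its overexpression change minus its shRNA-cFos E1 change. This log2 difference was -0.0015, and 0.012 with the pull of the fit toward 0 removed. With a fold minimum of 1.5 the opioid genes called went to 0 with shRNA-cFos, 1 with shRNA-Ctrl and 1 with overexpression, because Penk (0.46) and Pdyn (0.51) with shRNA-cFos and Pdyn in the other comparisons (-0.32 and -0.46) were under it. At an adjusted p of 0.01, Pdyn dropped out with shRNA-Ctrl and with overexpression, leaving 1 gene in each. The count of opioid genes whose E1 responses differed, 1, did not change under any of the 6 alternatives run. Without scaling between the shRNA tables, the estimated log2 ratio shRNA-cFos over shRNA-Ctrl was -0.47 at E1 and -1.35 at E0 for Pdyn, and -0.55 at E1 and -0.39 at E0 for Penk, beside -0.12 and 0.05 with scaling. The unscaled values carry the offset of -0.43 between the tables. Of 360 recounts of list members, 67 moved by over 1.5 times, 40 of them under the fold minimum. Recounts of the deposited comparisons with the pull removed could not move, for the reason above. No paired analysis was possible because the deposited tables hold no values per library; for the same reason leaving out a replicate was not run. Low counts limit Oprm1 and Oprk1.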
